A study of Mus musculus with 10 samples.

Results

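The genes described here are the core of the junctions that hold endothelial cells together: Cdh5 (VE-cadherin), Cldn5 (claudin-5), Ocln (occludin), Tjp1 (ZO-1), Esam, and the junctional adhesion molecules F11r (JAM-A), Jam2 (JAM-B) and Jam3 (JAM-C). They were taken by symbol from the table of gene counts, in which each of the 8 has a row among 23284 symbols. RNA-Seq was done on freshly sorted cells of C57BL/6 mice aged 6 to 8 weeks: LEC (lymphatic endothelium) and BEC (blood endothelium) from lymph nodes, with 4 libraries of LN-LEC and 3 of LN-BEC, and LEC from the diaphragm, with 3 libraries of D-LEC. The labels name no treatment, and no allele or agent separates the populations, which differ in cell type and in organ. Lymph node cells came from cervical, axillary, brachial, inguinal and mesenteric nodes mixed. Each library is a pool of mice, so the spread between libraries describes pools and not single animals. Cells were sorted as CD45-negative and CD31-positive, and PDPN separated LEC from BEC, so Pecam1 (CD31) and Pdpn carry no information about the populations beyond the sort. None of the 8 genes was used for the sort.

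Endothelial cells adhere through adherens junctions, in which VE-cadherin binds its copy on the neighbouring cell and is tied to actin by catenins, and through tight junctions, in which claudins form the sealing strands. Occludin and the junctional adhesion molecules sit beside the claudins, and ZO-1 links these membrane proteins to actin from the inside. JAM-A binds itself across the contact, whereas JAM-B and JAM-C bind each other and are also used by leukocytes that cross the vessel wall. In initial lymphatics, VE-cadherin and claudin-5 are concentrated in spaced buttons that leave openings for fluid and cells, while collecting lymphatics and blood vessels have continuous zipper-like junctions.

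The libraries held 22429940 to 48906070 counted fragments. Defining markers went with the labels: the sum of 5 LEC markers was 94668 to 119450 normalized counts in LN-LEC, 387239 to 415551 in D-LEC and 2891 to 7955 in LN-BEC, and the sum of 4 BEC markers was 69497 to 72713 in LN-BEC, 818 to 1374 in LN-LEC and 450 to 633 in D-LEC. A normalized count is the fragment count divided by the library's size factor. Without Pdpn, the sort marker, the other 4 LEC markers summed to 74130 to 103098 in LN-LEC, 325095 to 355543 in D-LEC and 2712 to 6780 in LN-BEC. LN-BEC replicate 3 and LN-LEC replicate 4 stood farthest from the other libraries of their populations. Between libraries of a population, the chi-square of the counts per gene (near 1 for counting noise alone) was 124 to 162 for pairs with LN-LEC replicate 4 and 326 to 406 for pairs with LN-BEC replicate 3, against 10.8 to 43.2 for the other pairs. The library numbers in the titles of these 2 adjoin each other and are the highest of the series. The labels name no batch, and whether these libraries were prepared apart was not tested. Values without 1 or both of them are given beside results of the 8 genes where leaving them out changes a call or moves a fold by over 1.5 times. Skeletal muscle transcripts were higher in D-LEC (summed over 8 genes, 1118 to 1683 normalized counts, against 31 to 105 in the lymph node libraries). In bulk RNA, fewer cells that contain a transcript and less of it per cell cannot be told apart.

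All 8 genes had a mean of at least 1 normalized count in each population and entered the test. Of them, 6 differed between LN-LEC and LN-BEC at an adjusted p below 0.05, 3 being higher in LN-LEC (Cldn5, F11r and Jam3) and 3 in LN-BEC (Cdh5, Esam and Jam2), where 38.2% of all 15323 genes tested passed the same threshold (19.8% in the direction of LN-LEC and 18.4% in that of LN-BEC). Between LN-LEC and D-LEC 3 differed, all higher in LN-LEC (Tjp1, Jam2 and Jam3), against 45.8% of all genes (24.1% in the direction of LN-LEC and 21.7% in that of D-LEC). Between D-LEC and LN-BEC all 8 differed, with Cldn5 and F11r higher in D-LEC and the other 6 higher in LN-BEC, against 48.1% of all genes (22.5% in the direction of D-LEC and 25.6% in that of LN-BEC). For Ocln, D-LEC replicates 1 and 2 held 2 and 1 fragments. A library below 3 fragments was treated as at the floor, so the call and fold of Ocln there rest on libraries at the floor. At a fold of at least 5, the counts were 2 (Esam and Jam2), 1 (Jam3) and 4 (Ocln, Esam, Jam2 and Jam3), where 9.84%, 12.2% and 15.2% of all genes passed. The genes that passed the test were also those whose libraries did not overlap between the populations, 6, 3 and 8 of 8, against 44.9%, 50% and 56.1% of all genes. Log2 fold changes below are LN-LEC over LN-BEC, LN-LEC over D-LEC and D-LEC over LN-BEC, so that a negative value in the first and the last means a higher level in LN-BEC. The 3 comparisons share libraries, and their counts are not independent of each other. Median log2 fold changes of the 8 were -0.45 (LN-LEC over LN-BEC), 0.25 (LN-LEC over D-LEC) and -1.91 (D-LEC over LN-BEC), beside -0.01, 0.03 and -0.05 over all genes tested.

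**Figure D1:**
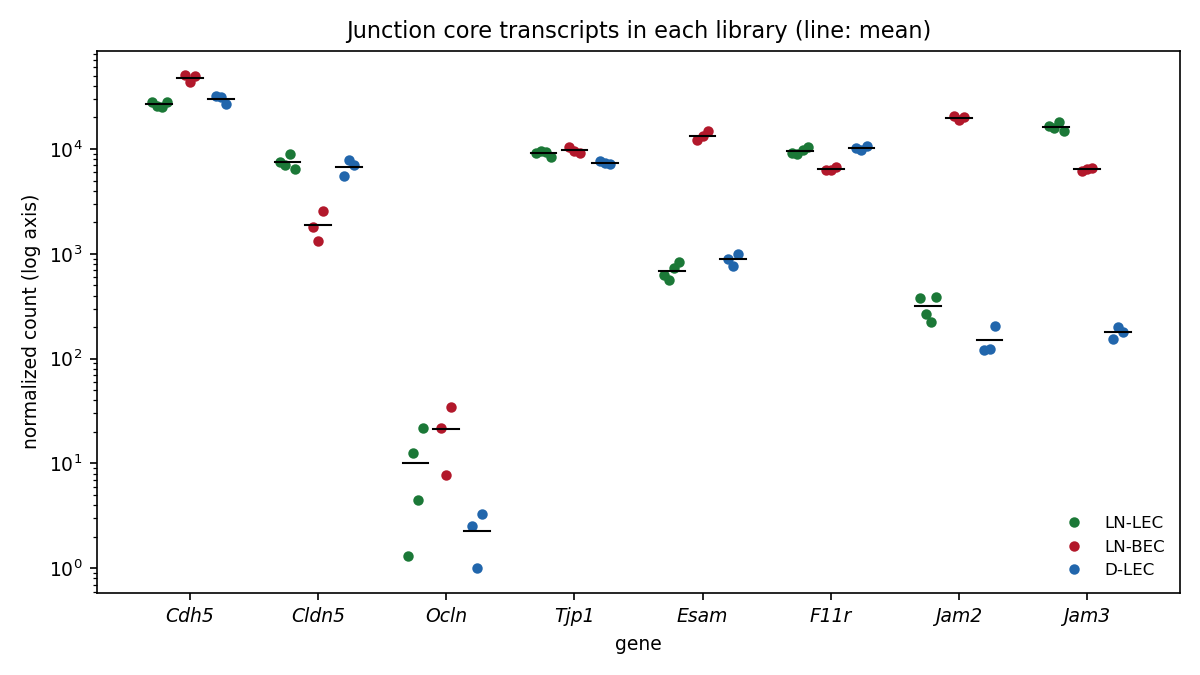
Normalized counts of the 8 junction genes in each library on a log axis, with 1 point per library and a line at the mean of each population. The LN-BEC points of Jam2 and Esam stand far above those of both LEC populations, Jam3 is low only in D-LEC, Tjp1 and F11r lie within a narrow band, and Ocln lies below 35 normalized counts in every library.

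The variation of the genes fell into 3 sizes. The span between the highest and the lowest population mean was 7.08 on the log2 scale for Jam2, 6.52 for Jam3 and 4.29 for Esam, where the spread between libraries of a population was 0.34, 0.13 and 0.21 (pooled SD, log2). Cldn5 spanned 2.03 with an SD of 0.31. Cdh5, F11r and Tjp1 spanned 0.83, 0.66 and 0.39, with SDs of 0.11, 0.08 and 0.07. Ocln spanned 2.63 with an SD of 1.15, the widest spread between libraries among the 8. The adhesion molecules of the immunoglobulin family thus covered both ends, since F11r was among the least and Jam2 and Jam3 among the most variable of the set.

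The sequences just upstream of Esam, Jam3 and Cldn5, which differed in 3 different patterns over the populations, are printed to show what their start sites look like. Each is the 250 bases before the outermost start in mm9, taken over the deposited annotation and GENCODE vM1, and is read 5′ to 3′ on the strand of the gene, with capitals at each GGAA or its reverse complement TTCC, the core recognised by ETS transcription factors, several of which (such as Erg) mark endothelium. The window of Esam lies at chr9:37335413-37335662 (plus strand), that of Jam3 at chr9:26963007-26963256 (minus) and that of Cldn5 at chr16:18776690-18776939 (plus). For Esam the outermost start is that of GENCODE, 11 bases upstream of the deposited start.
Esam: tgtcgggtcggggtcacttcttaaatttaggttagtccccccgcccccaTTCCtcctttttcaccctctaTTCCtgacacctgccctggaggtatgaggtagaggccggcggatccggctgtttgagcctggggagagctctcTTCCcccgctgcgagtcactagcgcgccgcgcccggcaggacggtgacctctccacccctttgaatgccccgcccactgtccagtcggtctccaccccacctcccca
Jam3: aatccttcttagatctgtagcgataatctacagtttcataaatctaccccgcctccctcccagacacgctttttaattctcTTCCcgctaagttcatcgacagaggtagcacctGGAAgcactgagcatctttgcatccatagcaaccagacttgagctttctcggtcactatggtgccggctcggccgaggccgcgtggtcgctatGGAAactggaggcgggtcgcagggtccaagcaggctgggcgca
Cldn5: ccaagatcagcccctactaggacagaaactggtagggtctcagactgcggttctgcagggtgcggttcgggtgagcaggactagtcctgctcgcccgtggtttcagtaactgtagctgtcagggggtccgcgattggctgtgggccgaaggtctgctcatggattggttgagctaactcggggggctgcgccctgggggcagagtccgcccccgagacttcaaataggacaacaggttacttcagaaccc
The Esam and Jam3 windows held 3 such cores each and Cldn5 held 0. Over 23099 windows of the same length, set at the deposited start for all genes but the 8, 92.5% held at least 1 core, the median was 3, and 53.6% held 3 or more. Esam and Jam3 thus held the same number although they were highest in different populations. For CG dinucleotides, Cldn5 held 12, Esam 16 and Jam3 15, beside a median of 10. A match is a description of the letters in this window, and its absence from Cldn5 tells nothing about the factors that act on the gene.

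Of the 8 genes, Jam2 showed the largest difference between blood and lymphatic endothelium. JAM-B, its product, is known from venules and from high endothelial venules of lymph nodes, where it binds JAM-C. The gene lies at chr16:84774368-84826620 in mm9, the build of all positions given here (10 exons, 4817 exon bases). In LN-BEC its normalized counts were 20528, 18780 and 20194 in the 3 libraries. In LN-LEC they were 379, 269, 226 and 386, and in D-LEC 120, 124 and 205. No library of LN-LEC or D-LEC came near LN-BEC, and the lowest LN-LEC library was above the highest D-LEC library. Jam2 exceeded its LN-LEC level 63.0-fold in LN-BEC (log2 fold change -5.96, SE 0.24, adjusted p = 9.81e-09, edgeR) and its D-LEC level 133-fold (log2 fold change -7.04, SE 0.29, adjusted p = 6.81e-09). By size of change it ranked 89 among the 15323 genes between LN-LEC and LN-BEC. It was also 2.10-fold higher in LN-LEC relative to D-LEC (log2 fold change 1.08, SE 0.23, adjusted p = 0.00293).

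The low Jam2 level of the LEC libraries is read beside the markers of BEC in the same libraries. Jam2 in LN-LEC was 1.59% ± 0.40 (SD, n = 4) of its LN-BEC mean, and the BEC markers Nrp1, Flt1, Vwf and Notch4 were 1.48%, 1.35%, 2.0% and 2.27% of theirs. In D-LEC, Jam2 was 0.755% ± 0.24 (SD, n = 3), and these markers were 0.233%, 0.416%, 2.59% and 4.82%. Within LN-LEC, the libraries with more Jam2 (replicates 1 and 4) were also those with the higher sums of BEC markers, 1305 and 1374 normalized counts against 818 and 866 in replicates 2 and 3. Within D-LEC, the library with most Jam2 (replicate 3) also had the highest sum, 633 against 507 and 450. The part that BEC transcripts have in the Jam2 level of the LEC libraries, and in the gap between the LEC populations, was not tested.

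Jam3 showed the largest difference of the 8 between the LEC populations. Its product JAM-C is the partner of JAM-B and takes part in leukocyte transmigration and in vessel permeability. Jam3 lies at chr9:26904969-26963006 on the minus strand (9 exons, 1970 exon bases). Normalized counts were 16637, 15711, 18133 and 14828 in the LN-LEC libraries. They were 6112, 6478 and 6584 in LN-BEC and 154, 200 and 179 in D-LEC. The 3 populations did not overlap, in the order LN-LEC, LN-BEC, D-LEC. LN-LEC exceeded D-LEC 91.8-fold (log2 fold change 6.54, SE 0.13, adjusted p = 2.14e-12) and LN-BEC 2.55-fold (log2 fold change 1.37, SE 0.10, adjusted p = 1.19e-07). LN-BEC exceeded D-LEC 35.9-fold (log2 fold change of D-LEC over LN-BEC -5.17, SE 0.13, adjusted p = 4.88e-12). Each D-LEC library held 122 to 217 fragments of Jam3, well above the 3 fragments below which a library was treated as at the floor.

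The D-LEC level of Jam3 was 1.09% ± 0.14 (SD, n = 3) of that in LN-LEC. Jam3 is also known from platelets and some leukocytes, whose markers did not all go one way. The sum of 7 platelet genes was 991 to 1211 normalized counts in LN-LEC, 1261 to 1833 in LN-BEC and 111 to 247 in D-LEC, and most of it was Pf4 (means of 861, 1528 and 74.4). Between the LEC populations, 2 of the 6 platelet genes tested (Pf4 and Gp1ba) were higher in LN-LEC and 2 (Ppbp and Gp9) in D-LEC. For Ppbp the means were 55.5 normalized counts in D-LEC, 20.8 in LN-BEC and 2.36 in LN-LEC. The sum of 13 haematopoietic genes was 661 to 834 in LN-LEC, 1350 to 2081 in LN-BEC and 102 to 236 in D-LEC. The sum of 12 fibroblast and pericyte genes was larger, at 7631 to 14046 in LN-LEC, 8099 to 16312 in LN-BEC and 3368 to 10223 in D-LEC. Between the LEC populations, 5 of these 12 were higher in LN-LEC and 0 in D-LEC (41.7% passed, against 45.8% of all genes). Gp6 was at 0 in every LN-LEC and LN-BEC library and Gp9 in every LN-LEC library. Within the lymph node libraries, Jam3 was higher in LN-LEC and the platelet and haematopoietic sums were higher in LN-BEC. Between the LEC populations, Jam3 and both of these sums were higher in LN-LEC. The part of platelet, haematopoietic, fibroblast or pericyte transcripts in the level of Jam3 was not tested.

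F11r, which encodes JAM-A, was the most even of the 3 junctional adhesion molecules. JAM-A is found at tight junctions of endothelium and epithelium and on platelets and leukocytes. F11r lies at chr1:173367692-173394724 (10 exons, 2482 exon bases). Its normalized counts were 9123, 8918, 9782 and 10417 in LN-LEC, 10140, 9777 and 10684 in D-LEC and 6337, 6326 and 6707 in LN-BEC. The LEC libraries overlapped each other and all lay above LN-BEC. F11r was 1.48-fold higher in LN-LEC (log2 fold change over LN-BEC 0.58, SE 0.08, adjusted p = 5.4e-05) and 1.58-fold higher in D-LEC (0.65 over LN-BEC, SE 0.09, adjusted p = 2.51e-05). Between LN-LEC and D-LEC no difference passed the threshold (log2 fold change -0.07, 95% interval -0.24 to 0.10, adjusted p = 0.489).

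Because levels of different genes compare only per length, the 3 junctional adhesion molecules were set side by side as shares of their summed counts per kb of exon within each library. In LN-LEC, Jam3 made up 67.8% ± 2.76 (SD, n = 4), F11r 31.6% ± 2.66 and Jam2 0.540% ± 0.15. In LN-BEC, the shares were 41.3% ± 1.5 (SD, n = 3) for Jam2, 32.6% ± 1.25 for Jam3 and 26.1% ± 0.33 for F11r. In D-LEC, F11r alone made up 97.1% ± 0.36 (SD, n = 3), with 2.14% ± 0.33 for Jam3 and 0.729% ± 0.20 for Jam2. Each population thus had a different leading member, and the leading share had no overlap with that gene's share in either other population. The summed level per kb was 12205 ± 701 normalized counts for LN-LEC, 9963 ± 254 for LN-BEC and 4231 ± 189 for D-LEC, so that the sum was lowest in D-LEC while F11r itself was not.

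Among 12 two-sided exact permutation tests of within-library quantities, the shares of F11r, Jam2 and Jam3 reached the smallest p the design allows in each comparison except for Jam2 between LN-LEC and D-LEC. That smallest p is 0.0571 with 4 against 3 libraries (0.114 after Benjamini-Hochberg adjustment over the 12 exact tests) and 0.1 with 3 against 3 (0.12 adjusted), so the design cannot pass 0.05. For Jam2 between LN-LEC and D-LEC the difference in share was -0.19 percentage points (exact permutation p = 0.343).

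**Figure D2:**
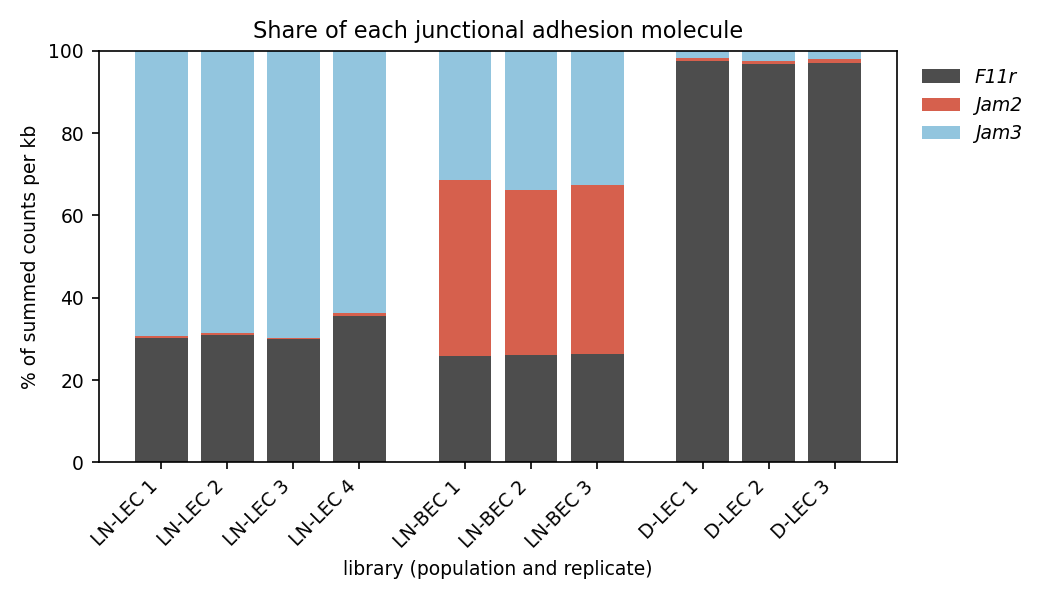
Share of F11r, Jam2 and Jam3 in their summed counts per kb of exon, as a stacked bar for each library. Jam3 leads in the 4 LN-LEC bars (63.8% to 69.8%), Jam2 is a visible share only in the 3 LN-BEC bars (40.0% to 43.0%), and F11r fills 96.9% to 97.5% of the 3 D-LEC bars.

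Esam followed Jam2 in direction and was lower in both LEC populations. ESAM is an adhesion molecule of endothelial tight junctions and of platelets that takes part in neutrophil passage. Esam lies at chr9:37335674-37345904 (7 exons, 1854 exon bases). It had 12156, 13225 and 14920 normalized counts in LN-BEC, 631, 560, 732 and 838 in LN-LEC, and 893, 762 and 999 in D-LEC. LN-BEC stood apart from both LEC populations, which overlapped each other. The LN-BEC mean exceeded that of LN-LEC 19.5-fold (log2 fold change -4.26, SE 0.15, adjusted p = 1.43e-10) and that of D-LEC 15.2-fold (-3.93, SE 0.16, adjusted p = 3.07e-10).

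Esam was at the edge of the threshold between the LEC populations: the log2 fold change of LN-LEC over D-LEC was -0.33 (95% interval -0.63 to -0.04, adjusted p = 0.062), and without LN-LEC replicate 4 it was -0.44 with an adjusted p of 0.012. The levels in LEC were 5.14% ± 0.90 (SD, n = 4) and 6.59% ± 0.88 (SD, n = 3) of the LN-BEC mean in LN-LEC and D-LEC. All 4 BEC markers in LN-LEC and in D-LEC had lower means than these, the highest being Notch4 at 2.27% and 4.82%, and Nrp1 and Flt1 being at 1.48% or less. In the D-LEC libraries Notch4 ran from 3.84% to 5.51% and Esam from 5.68% to 7.44%. The part of BEC or platelet transcripts in the Esam level of the LEC libraries was not tested. Per kb of exon, Esam in LEC (372 ± 65.3 in LN-LEC and 477 ± 63.9 in D-LEC) was above Jam2 (65.4 ± 16.6 and 31.1 ± 9.94).

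Cdh5, the transcript of VE-cadherin, was abundant in all 3 populations and highest in LN-BEC. The gene lies at chr8:106625525-106668402 (12 exons, 3986 exon bases). The LN-LEC libraries had 27914, 25688, 25428 and 27934 normalized counts, the D-LEC libraries 31940, 31317 and 26636, and the LN-BEC libraries 50421, 43530 and 49258. Every LN-BEC library exceeded every LEC library, and the LEC populations overlapped. The LN-BEC mean of Cdh5 was 1.79 times that of LN-LEC (log2 fold change -0.82, SE 0.09, adjusted p = 8.35e-06) and 1.59 times that of D-LEC (-0.68, SE 0.10, adjusted p = 8.46e-05). For LN-LEC over D-LEC it was -0.14 (95% interval -0.35 to 0.06, adjusted p = 0.237). Other pan-endothelial genes were also mostly higher in LN-BEC. Of 10 such markers (Pecam1, used in the sort, among them), 8 were higher than in LN-LEC and 8 than in D-LEC, against 18.4% and 25.6% of all genes. Erg and Kdr did not pass between LN-LEC and LN-BEC. Between D-LEC and LN-BEC, Tie1 was higher in D-LEC (log2 fold change 0.41, adjusted p = 0.006, edgeR) and Tek did not pass. The median log2 fold change was -1.27 for LN-LEC over LN-BEC and -0.94 for D-LEC over LN-BEC. The difference in Cdh5 was smaller than these medians. Per kb, Cdh5 was the highest of the 8 in LN-BEC (11976 ± 925) and in D-LEC (7517 ± 727), while in LN-LEC Jam3 (8288 ± 717) stood above Cdh5 (6709 ± 344), with no overlap between the libraries' values.

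Cldn5 went the other way. Claudin-5 is the main claudin of endothelium and limits the passage of small solutes, as at the blood-brain barrier. Cldn5 lies at chr16:18776940-18778355 as a single exon of 1416 bases. Normalized counts were 7439, 7115, 9038 and 6501 in LN-LEC, 5496, 7793 and 6988 in D-LEC and 1814, 1337 and 2541 in LN-BEC. All LEC libraries lay above all LN-BEC libraries, and the LEC populations overlapped. LN-LEC exceeded LN-BEC 3.97-fold (log2 fold change 2.0, SE 0.22, adjusted p = 3.16e-05) and D-LEC exceeded LN-BEC 3.56-fold (1.83, SE 0.23, adjusted p = 6.67e-05). For LN-LEC over D-LEC the log2 fold change was 0.17 (95% interval -0.29 to 0.63, adjusted p = 0.526).

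Within LN-BEC the libraries ranked for Cldn5 as they did for the summed LEC markers, which were 4007, 2891 and 7955 normalized counts in replicates 1, 2 and 3. Cldn5 in LN-BEC was 25.2% of its LN-LEC mean, with a range of 17.8% to 33.8% over the 3 libraries. Of the 5 LEC markers, Flt4 (VEGFR-3) was at 14.4% of its LN-LEC mean (11.9% to 16.6%), while Lyve1, Pdpn, Prox1 and Reln were at 2.80%, 3.30%, 2.77% and 2.53%. The part of LEC transcripts in the Cldn5 level of LN-BEC was not tested beyond these values. Without LN-BEC replicate 3, the log2 fold change of LN-LEC over LN-BEC was 2.26 (adjusted p = 1.16e-06).

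Cdh5 and Cldn5 moved in opposite directions, so their ratio within a library separated LEC from BEC more widely than either gene. Per kb of exon, the log2 ratio of Cldn5 to Cdh5 was -0.35 ± 0.25 (SD, n = 4) in LN-LEC, -0.67 ± 0.33 (SD, n = 3) in D-LEC and -3.21 ± 0.38 (SD, n = 3) in LN-BEC. In linear terms Cldn5 ran at 0.655 to 1.0 of Cdh5 in LN-LEC, at 0.484 to 0.738 in D-LEC and at 0.0865 to 0.145 in LN-BEC. The ratio needs no scaling between libraries. The difference between LN-LEC and LN-BEC was 2.86 (exact permutation p = 0.0571, the smallest possible, 0.114 adjusted over 12 exact tests), that between D-LEC and LN-BEC was 2.54 (exact permutation p = 0.1, the smallest possible, 0.12 adjusted), and that between LN-LEC and D-LEC was 0.32 (exact permutation p = 0.286, 0.312 adjusted).

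**Figure D3:**
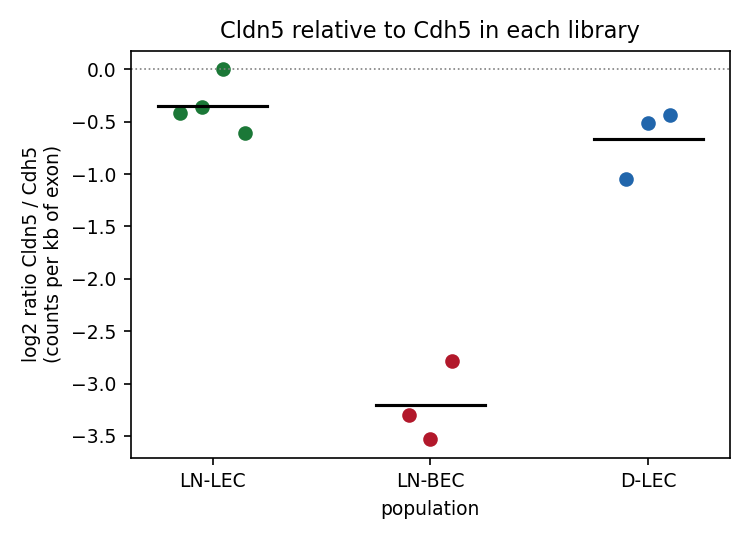
Log2 ratio of Cldn5 to Cdh5 in counts per kb of exon, with 1 point per library and a line at the mean of each population; the dotted line marks equal levels. The LN-BEC libraries lie between -3.53 and -2.78 and all LEC libraries between -1.05 and 0.00.

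Tjp1 was the steadiest of the 8. ZO-1 is the scaffold that gathers claudins and junctional adhesion molecules and ties them to actin. Tjp1 lies at chr7:72441051-72516130 on the minus strand (28 exons, 7114 exon bases). It had 9103, 9474, 9465 and 8464 normalized counts in LN-LEC, 10385, 9593 and 9137 in LN-BEC and 7637, 7342 and 7221 in D-LEC. The lymph node populations overlapped and both lay above D-LEC. Relative to D-LEC, Tjp1 was 1.23-fold higher in LN-LEC (log2 fold change 0.32, SE 0.08, adjusted p = 0.00381) and 1.31-fold higher in LN-BEC (log2 fold change of D-LEC over LN-BEC -0.40, SE 0.08, adjusted p = 0.00131). Between LN-LEC and LN-BEC the log2 fold change was -0.07 (95% interval -0.24 to 0.09, adjusted p = 0.496).

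Ocln was close to the limit of detection throughout. Occludin is a tight junction protein of epithelia and of tight vascular barriers. Ocln lies at chr13:101267322-101322453 on the minus strand (9 exons, 3192 exon bases). Its raw counts were 1, 10, 4 and 35 fragments in LN-LEC, 25, 9 and 33 in LN-BEC and 2, 1 and 4 in D-LEC, or 10.1 ± 9.26, 21.4 ± 13.4 and 2.28 ± 1.17 normalized counts (SD). LN-LEC replicate 1 and D-LEC replicates 1 and 2 lay below the 3 fragments treated as the floor. Ocln passed the threshold between D-LEC and LN-BEC (log2 fold change -3.14, SE 0.93, adjusted p = 0.0125) but not between LN-LEC and LN-BEC (-0.97, 95% interval -2.52 to 0.57, adjusted p = 0.318). That value was -1.75 without LN-LEC replicate 4 (adjusted p = 0.0993), -0.46 without LN-BEC replicate 3 (adjusted p = 0.706) and -1.23 without both (adjusted p = 0.284). Without LN-BEC replicate 3 the difference between D-LEC and LN-BEC was -2.63 (adjusted p = 0.0425). For LN-LEC over D-LEC the log2 fold change was 2.17 (95% interval 0.21 to 4.13, adjusted p = 0.0663), and without LN-LEC replicate 1 it was 2.50 with an adjusted p of 0.028, whereas without LN-LEC replicate 4 it was 1.39 (adjusted p = 0.25).

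The level of epithelial and mesothelial transcripts is given beside Ocln. The summed level of 11 such markers was highest in LN-LEC replicate 4 (862 normalized counts, against 194 to 346 in the other LN-LEC libraries) and in LN-BEC replicate 3 (2419, against 321 and 547), and these 2 libraries also had the most Ocln of their populations. The other 3 LN-LEC libraries did not follow the markers: replicate 1 had the most of them (346) and the least Ocln (1.30 normalized counts), and replicate 2 the least of them (194) and the most Ocln (12.7). D-LEC had 662 to 2034 of these markers with 1 to 4 fragments of Ocln. The sum joins markers of opposite direction. Between the LEC populations, 6 of the 11 were higher in D-LEC and 2 (Epcam and Cdh1) in LN-LEC. Upk3b and Msln had the highest D-LEC means of the 11 (618 and 276 normalized counts). Epcam averaged 396 normalized counts for LN-BEC, 136 for LN-LEC and 4.93 for D-LEC. Cdh1 averaged 173, 58.0 and 2.54 in that order. Both were thus lowest in D-LEC, as Ocln was. The part of epithelial and mesothelial transcripts in the level of Ocln was not tested. Per kb of exon, the mean of Ocln was 0.0473% of that of Cdh5 for LN-LEC, 0.0561% for LN-BEC and 0.00949% for D-LEC. Tricellulin (Marveld2), a relative of occludin found where 3 cells meet, had more transcript: of the summed counts per kb of Ocln, Marveld2 and Marveld3, it made up 99.0% ± 0.74 in D-LEC, 85.8% ± 6.79 in LN-LEC and 71.5% ± 3.30 in LN-BEC.

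**Figure D4:**
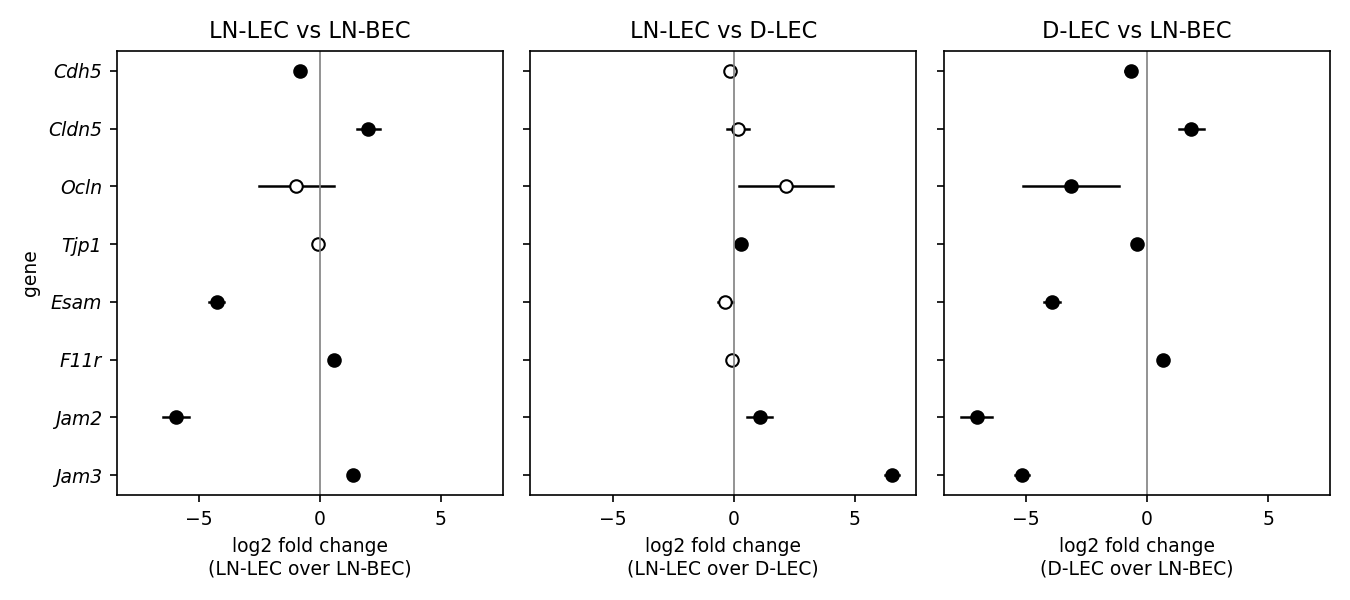
Log2 fold changes of the 8 junction genes in the 3 comparisons, with bars for 95% intervals from the edgeR fit; filled points passed an adjusted p of 0.05 and open points did not. Jam2 and Esam lie far on the LN-BEC side in both comparisons with LN-BEC, Jam3 lies at 6.54 between LN-LEC and D-LEC, and the widest intervals are those of Ocln.

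For each gene, the 3 genes whose levels ran most alike over the 10 libraries were taken by the root mean square difference of centred log2 normalized counts, among 10214 genes with a mean of at least 100. The points are dominated by the differences between the 3 populations, so the values are descriptions only. Jam2 was closest to Sox17, a transcription factor of arterial and other blood endothelium (difference 0.32 on the log2 scale), to Flt1, the VEGF receptor that is also a BEC marker here (0.38), and to Plscr2 (0.38). Esam was closest to Gpr56 (0.27), Stk10 (0.28) and Eepd1 (0.30). Jam3 was closest to Gpc1, a cell surface heparan sulphate proteoglycan (0.23), to Hunk (0.35) and to Robo1, a guidance receptor (0.38). For Gpc1 the means were 6354 normalized counts for LN-LEC, 2014 for LN-BEC and 73.9 for D-LEC, the same order as Jam3.

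Cldn5 was closest to Efemp2 (0.16) and Fbn1 (0.23), which encode elastic fibre proteins, and to Cdc42bpg (0.23). For Fbn1 the means were 6336 normalized counts in LN-LEC, 6114 in D-LEC and 1353 in LN-BEC. Cdh5 was closest to Cd320 (0.09), Ndnl2 (0.10) and Tnfaip1 (0.10), F11r to Mapre2 (0.05), Tmem106b (0.06) and Crbn (0.06), and Tjp1 to Csrp1 (0.05), Tmem208 (0.06) and Dap3 (0.06), where small differences between populations leave many genes alike. For Ocln the nearest gene was Chchd10 at 0.80, so no gene ran close to it. Among the 8 themselves, the nearest pairs were Cdh5 and Tjp1 (0.33) and Tjp1 and F11r (0.43), and the farthest was Cldn5 and Jam2 (3.90). Jam2 and Jam3, which encode partners in adhesion, were 3.24 apart.

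The rest of the junction was described by 7 lists, with 98 genes tested. Of these, 56 differed between LN-LEC and LN-BEC (25 higher in LN-LEC and 31 in LN-BEC), 54 between LN-LEC and D-LEC (26 higher in LN-LEC and 28 in D-LEC) and 63 between D-LEC and LN-BEC (24 higher in D-LEC and 39 in LN-BEC). These are 57.1%, 55.1% and 64.3% of the genes, beside the 38.2%, 45.8% and 48.1% of all genes given above. The shares by list, in the same order, were 15.8%, 42.1% and 31.6% for claudins, below those of all genes in each comparison. Several of the claudins tested, such as Cldn6, Cldn9 and Cldn23, were scarce in all populations, and how far this lowers their share was not tested. For tricellular and MARVEL genes they were 50%, 83.3% and 66.7%, and for scaffolds and polarity 80%, 52% and 80%. Catenins and vinculin had 90.9%, 72.7% and 63.6%, and nectins 66.7%, 33.3% and 66.7%. The CTX family had 14.3%, 57.1% and 57.1%, and the VE-cadherin partners 61.9%, 61.9% and 76.2%. No list was tested against other genes.

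Of the 24 other claudin symbols listed, 19 were tested. Between LN-LEC and LN-BEC 2 were higher in LN-LEC and 1 in LN-BEC (median log2 fold change -0.60). Between LN-LEC and D-LEC 7 were higher in LN-LEC and 1 in D-LEC (0.31), and between D-LEC and LN-BEC 6 passed, all higher in LN-BEC (-1.13). Cldn11, a claudin of myelin and testis, was highest in LN-LEC, with 5744 ± 485 normalized counts (SD, n = 4) against 438 ± 127 in LN-BEC (log2 fold change 3.73, SE 0.17, adjusted p = 2.35e-09) and 559 ± 32.8 in D-LEC (3.38, SE 0.17, adjusted p = 3.46e-09).

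Cldn15, a claudin of pore-forming type, was highest in LN-BEC (578 ± 230 normalized counts, against 35.4 ± 13 in LN-LEC and 198 ± 85.7 in D-LEC). Cldn13 was near 0 in D-LEC (0.334 ± 0.58) and at 115 ± 24.4 in LN-LEC and 175 ± 56.6 in LN-BEC. For Cldn22 the LN-BEC libraries had 189, 105 and 855 normalized counts, the LN-LEC libraries 130, 68.6, 88.2 and 360, and the D-LEC libraries 12.6 to 23.1. The highest of each lymph node population were LN-BEC replicate 3 and LN-LEC replicate 4. These 2 libraries also had the most epithelial and mesothelial transcripts of their populations (2419 and 862 normalized counts, summed). The part of such transcripts in Cldn22 was not tested. The log2 fold change of D-LEC over LN-BEC was -4.45 (adjusted p = 0.0102), and -3.06 without these 2 libraries (adjusted p = 1.42e-05). For LN-LEC over D-LEC it was 3.26 (adjusted p = 0.0338, edgeR), 2.46 without them (adjusted p = 7.95e-05), and 2.47 without LN-LEC replicate 4 alone (adjusted p = 0.0637). That difference also lost the threshold without LN-LEC replicate 1 (adjusted p = 0.0532) and without D-LEC replicate 1, 2 or 3 (adjusted p = 0.108, 0.101 and 0.0847). For LN-LEC over LN-BEC the log2 fold change was -1.19 (adjusted p = 0.298), and -0.60 without LN-BEC replicate 3 and LN-LEC replicate 4 (adjusted p = 0.203). As a share of the summed counts per kb of 25 claudins, Cldn5 made up 68.5% ± 3.72 (SD, n = 3) in D-LEC, 48.9% ± 5.47 (SD, n = 4) in LN-LEC and 31.5% ± 3.17 (SD, n = 3) in LN-BEC. Cldn11 made up 28.4% ± 3.23 in LN-LEC, and 5.55% ± 0.69 and 4.33% ± 0.30 in LN-BEC and D-LEC. Cldn22 made up 14.45% in LN-BEC replicate 3, against 5.22% and 3.26% in replicates 1 and 2, so claudin shares in LN-BEC vary with that library. The level of Cldn5 overlapped between the LEC populations, whereas its share among claudins did not overlap.

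Cldn25, named here after its values were seen, held a large share as well. Its row lies at chr16:58728023-58734360 (6 exons, 2194 exon bases), and by chromosome it is the gene that RefSeq (GRCm38) now calls Cldnd1, a claudin domain protein for which Cldn25 is an older name. It had 3950 ± 95.3 normalized counts in LN-LEC, 3241 ± 175 in D-LEC and 2887 ± 80.3 in LN-BEC (log2 fold change of LN-LEC over LN-BEC 0.47, SE 0.07, adjusted p = 0.000167). Per kb it made up 16.6% ± 0.53 of the claudin sum in LN-LEC, 21.4% ± 2.2 in D-LEC and 32.9% ± 9.31 in LN-BEC, where 2 of the 3 libraries had nearly as much or more of it than of Cldn5 (35.0% and 40.9%, against 35.1% and 29.3%) and replicate 3 had less (22.7%, against 30.1%). Without Cldn25, the share of Cldn5 was 58.7% ± 6.33 in LN-LEC, 87.2% ± 3.24 in D-LEC and 47.5% ± 7.75 in LN-BEC. The share in D-LEC then still had no overlap with the others, while those in LN-LEC (51.5% to 66.9%) and LN-BEC (39.0% to 54.1%) overlapped. These shares were not tested.

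Of 6 tricellular and MARVEL genes, 3 passed between LN-LEC and LN-BEC, all higher in LN-BEC (median log2 fold change -0.66). Between the LEC populations 2 were higher in LN-LEC and 3 in D-LEC (-0.65), and between D-LEC and LN-BEC 2 passed in each direction (0.36). Marveld2 was 355 ± 22.3 normalized counts in D-LEC, 221 ± 46.5 in LN-BEC and 107 ± 36.5 in LN-LEC (log2 fold change of LN-LEC over D-LEC -1.69, SE 0.24, adjusted p = 6.16e-05). Lsr (angulin-1), which recruits tricellulin, likewise stood at 402 ± 63.4 in D-LEC and at 133 ± 48.0 in LN-LEC (-1.57, SE 0.26, adjusted p = 0.000284). Marveld1 differed by less, from 927 ± 45.1 in LN-LEC to 1191 ± 105 in D-LEC, with LN-BEC at 1154 ± 42.3. Of 11 epithelial and mesothelial markers, 6 were also higher in D-LEC and 2 in LN-LEC in that comparison. Thus 72.7% of them passed, against 45.8% of all genes. The 6 were Krt14, Krt19, Msln, Upk3b, Wt1 and Lrrn4, and the 2 were Epcam and Cdh1. The part of such transcripts in Marveld2 and Lsr was not tested.

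Scaffolds and polarity proteins share the cytoplasmic face of the junction with ZO-1. Between the lymph node populations 13 of 25 were higher in LN-LEC and 7 in LN-BEC (median log2 fold change of LN-LEC over LN-BEC 0.39). Between the LEC populations 2 were higher in LN-LEC and 11 in D-LEC (median of LN-LEC over D-LEC -0.48). Set against LN-BEC, D-LEC was higher for 13 and lower for 7 (median of D-LEC over LN-BEC 0.58). Members of the PAR complex led: Pard6g had 19325 ± 850 normalized counts in D-LEC, 3153 ± 253 in LN-LEC and 174 ± 98.4 in LN-BEC (log2 fold change of D-LEC over LN-BEC 6.80, SE 0.38, adjusted p = 4.65e-07), and Prkcz, an atypical protein kinase C, had 2293 ± 251, 711 ± 114 and 81.0 ± 33.0. Pard3 did not pass the threshold between the LEC populations (2552 ± 146 in LN-LEC and 2391 ± 8.44 in D-LEC, log2 fold change 0.11, SE 0.34, adjusted p = 0.815) and had 203 ± 128 in LN-BEC. Lin7a ran the other way, at 115 ± 14.1 in LN-BEC, 10.1 ± 6.91 in LN-LEC and 4.63 ± 2.55 in D-LEC.

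Among the catenins and vinculin, which tie VE-cadherin to actin, 5 of 11 were higher in LN-LEC and 5 in LN-BEC when these populations were compared (median log2 fold change 0.09). The LEC comparison had 3 that were higher in LN-LEC and 5 in D-LEC (-0.06), and D-LEC was higher than LN-BEC for 4 and lower for 3 (0.14). Jup (plakoglobin), which binds VE-cadherin directly, had 11222 ± 1947 normalized counts in D-LEC, 5114 ± 252 in LN-BEC and 3738 ± 355 in LN-LEC (log2 fold change of LN-LEC over D-LEC -1.57, SE 0.11, adjusted p = 8.84e-08). Ctnnal1 (alpha-catulin) was also highest in D-LEC, at 15622 ± 1348, followed by LN-LEC at 5257 ± 624 and LN-BEC at 841 ± 180. Pkp4, a p120 catenin relative, was lowest in LN-LEC (4370 ± 52.8, against 17999 ± 828 in LN-BEC and 12333 ± 582 in D-LEC). Ctnnd2 was seen almost only in LN-LEC, at 219 ± 40.4 against 4.16 ± 5.49 and 2.29 ± 2.39 in LN-BEC and D-LEC.

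Of the 9 nectins and nectin-like proteins, which form a further adhesion system of adherens junctions, 1 was higher in LN-LEC and 5 in LN-BEC between the lymph node populations (median log2 fold change -0.66). Between the LEC populations 2 were higher in LN-LEC and 1 in D-LEC (0.47), and D-LEC was higher than LN-BEC for 1 and lower for 5 (-0.97). The 1 gene that was higher in both LEC populations than in LN-BEC was Pvrl2 (Nectin2), at 8069 ± 502 normalized counts in LN-LEC, 5603 ± 710 in D-LEC and 2756 ± 80.0 in LN-BEC. Pvrl3 (Nectin3) ran opposite, with 1238 ± 152 in LN-BEC and 518 ± 80.5 in LN-LEC. Cadm1 and Cadm3 were higher in LN-BEC (472 ± 51.4 and 191 ± 55.4) than in LN-LEC (54.3 ± 12.9 and 21.5 ± 10.8). For Cadm1, 5.01% of the exon bases lie opposite an exon of another gene, and counting ignored strand.

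Relatives of the junctional adhesion molecules in the CTX family were mostly scarce. Of 8 listed, 7 were tested. Between the lymph node populations 1 passed, higher in LN-BEC (median log2 fold change -0.05). Between the LEC populations 3 were higher in LN-LEC and 1 in D-LEC (2.37), and between D-LEC and LN-BEC 4 passed, all higher in LN-BEC (-2.97). Vsig2 was 1793 ± 136 normalized counts in LN-BEC, 59.4 ± 9.47 in LN-LEC and 105 ± 52.9 in D-LEC (log2 fold change of LN-LEC over LN-BEC -4.88, SE 0.25, adjusted p = 2.25e-08). It lies on the same strand as Esam, 935 bases past its end, and shows the same order of populations, but whether fragments of Esam transcripts run into it was not tested. Cxadr, the coxsackie and adenovirus receptor, had 496 ± 100 normalized counts in LN-LEC against 288 ± 63.3 in D-LEC, with an adjusted p of 0.00248.

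Of 21 partners and regulators of VE-cadherin, 4 were higher in LN-LEC and 9 in LN-BEC between the lymph node populations (median log2 fold change -0.17). Between the LEC populations 7 were higher in LN-LEC and 6 in D-LEC (0.16), and D-LEC was higher than LN-BEC for 4 and lower for 12 (-0.42). The exchange factor Rapgef4 (EPAC2), which activates Rap1, had the largest difference of this list between LN-LEC and LN-BEC, at 18.0 ± 4.69 against 1573 ± 259 normalized counts (log2 fold change -6.41, SE 0.19, adjusted p = 2.78e-11). Plekha7, an adherens junction protein that binds p120 catenin, was at 178 ± 29.9 in LN-BEC and at 5.15 ± 1.80 and 1.45 ± 0.93 in LN-LEC and D-LEC. Ptprj, a receptor phosphatase of the junction, was also highest in LN-BEC (405 ± 39.1, against 114 ± 12.2 and 34.8 ± 10.7). Tiam1, an exchange factor for Rac, had the same order of populations as Jam3, with 784 ± 155 for LN-LEC, 143 ± 40.3 for LN-BEC and 16.9 ± 5.0 for D-LEC (log2 fold change of LN-LEC over D-LEC 5.58, SE 0.28, adjusted p = 2.75e-09).

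**Figure D5:**
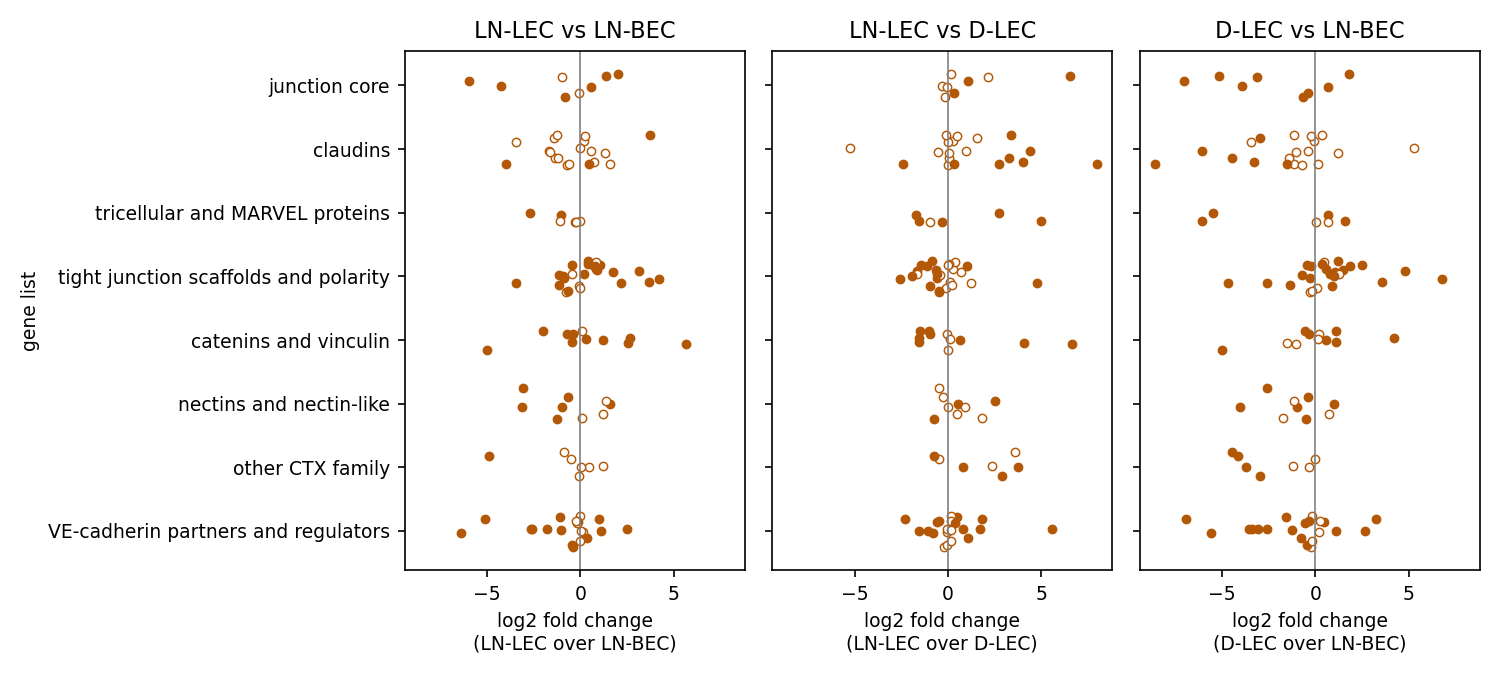
Log2 fold changes of the 8 junction core genes and of the 98 tested genes of 7 junction lists in the 3 comparisons; each point is a gene, filled where the adjusted p was below 0.05, with vertical jitter only for legibility. Scaffold and polarity genes lie mostly on the D-LEC side in both comparisons with D-LEC, and the VE-cadherin partners lie mostly on the LN-BEC side in both comparisons with LN-BEC.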

How the data were processed

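Reads were trimmed by the authors (Fastx-trimmer) and aligned with STAR to the mouse build mm9. Per the file headers, featureCounts 1.4.4 then counted read pairs over exons by gene name, with both mates mapped and without regard to strand. The deposited values are raw counts without normalization, beside the summed exon length of each gene. Groups came from the sample labels. These label neither batch nor pairing, and replicate numbers only name libraries.

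The genes, lists and tests were chosen with earlier results of these data known, so no list is independent evidence. Genes were tested by edgeR (version 4.0.16, under R 4.3.3) with TMM scaling (robust quasi-likelihood F test, 1 mean per population fitted to all 10 libraries) on 15323 genes. These had a mean of at least 1 normalized count in a population, and 3831 predicted, clone or otherwise unnamed symbols were left out. Adjustment followed Benjamini and Hochberg over all genes tested in a comparison, and 0.05 was the threshold. Fold changes in linear terms are ratios of mean normalized counts (DESeq2 1.42.0 size factors). The text names all 8 genes and the 3 genes nearest in pattern. It also names at most 4 genes of each junction list (passing in at least 1 comparison, mean of at least 100, largest log2 fold change). Marveld3, Cldn25, some scarce claudin and CTX family genes, and the markers were named as context. The test was checked on simulated counts. Exon ends of the 8 genes were compared with GENCODE vM1 on the same build, and each exon shared at least 1 end. Promoter windows were read with Python from that genome. No 2 libraries agreed within counting noise. Alternatives were DESeq2, other scaling and filters, and leaving out libraries; the refits of list genes without both doubted libraries, and the claudin shares without Cldn25, were added after seeing the data.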

Additional observations from a re-analysis of the deposited data

How the results depend on the processing

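No paired analysis was possible because the labels give the libraries no replicate number, batch or pool shared between populations. The labels do not say whether LN-LEC replicate 4 and LN-BEC replicate 3, whose library numbers adjoin, were prepared together, and leaving both out compares the remaining libraries alone. The 8 genes gave 24 log2 fold changes, refitted under 18 alternatives each: 426 of the 432 values kept their direction and side of the threshold, 6 moved past the threshold, and none lost it or reversed. For LN-LEC against D-LEC, the log2 fold change of Esam passed with DESeq2 size factors (-0.35, adjusted p = 0.0481), with DESeq2's Wald test (adjusted p = 0.0393), without LN-LEC replicate 4 (-0.44, adjusted p = 0.012), without D-LEC replicate 2 (-0.43, adjusted p = 0.0295), and without LN-LEC replicate 4 and LN-BEC replicate 3 together (-0.46, adjusted p = 0.00671), an alternative chosen after seeing the data; over all 18 alternatives its adjusted p ran from 0.00671 to 0.239. Ocln in the same comparison passed without LN-LEC replicate 1 (adjusted p = 0.028, range 0.028 to 0.25), and its other differences rest on 1 to 35 fragments per library. The cause was not tested. The 25 junction list genes named by rule and Cldn25 gave 78 log2 fold changes, and 1358 of 1404 refitted values kept their direction and side of the threshold. Of the rest, 25 lost the threshold, 13 passed it, and 8 changed sign, all in differences that did not pass: Lsr between LN-LEC and LN-BEC (0.00 with all symbols, 0.01, 0.14 and 0.08 without LN-LEC replicates 1, 2 and 3, and 0.26 without LN-BEC replicate 3), Cldn22 in the same comparison (0.17 without LN-BEC replicate 3), and Ctnnd2 (0.99 without LN-BEC replicate 2) and Marveld1 (-0.01 without D-LEC replicate 2) between D-LEC and LN-BEC. Marveld2 between D-LEC and LN-BEC lost the threshold in 7 of the 10 fits that leave out 1 library. Without LN-LEC replicate 4 and LN-BEC replicate 3 together, Marveld1 between LN-LEC and LN-BEC (adjusted p = 0.0773) and Vsig2 between the LEC populations (adjusted p = 0.0539) lost the threshold, Cxadr between LN-LEC and LN-BEC (adjusted p = 0.0246) and Cldn11 between D-LEC and LN-BEC (adjusted p = 0.000392) passed it, and only Cldn22 moved by over 1.5 times. With single libraries left out, the number of the 8 genes that differed was 6 for LN-LEC against LN-BEC, 3 to 4 for LN-LEC against D-LEC and 8 for D-LEC against LN-BEC; for the 7 junction lists it was 52 to 57, 49 to 57 and 53 to 63. Without LN-LEC replicate 4 and LN-BEC replicate 3 together, 6, 4 and 8 of the 8 genes and 53, 55 and 58 of the list genes differed. The difference in F11r share between LN-LEC and LN-BEC was 16.8 percentage points with raw counts in place of counts per kb, against 5.51, since exon lengths differ. Ranking by Pearson correlation in place of distance kept 1 of the 3 nearest genes for Cldn5 and Jam2 and 0 for the other 6, although all 3 stayed within the nearest 100 for each. Groups of 3 and 4 libraries and pools of mice limit the precision throughout.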
